A study of Sus scrofa with 15 samples.

Results

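The genes described here are the type I interferon signalling genes of LLC-PK1, an epithelial line from the renal proximal tubule of a pig. They were selected from the gene ontology term on the type I interferon signalling pathway as the study lists it for its differentially expressed genes (DEGs) of Tg2 against NC, with proteasome symbols (PSMB) left out. Of the 27 remaining symbols, 24 were matched to an Ensembl ID in the study's DEG lists, and all 24 passed the filter on low expression. IFITM1, SP100 and IFNAR2 were not matched, and only IFNAR2 could be followed by another route, among the other pathway genes. The count table holds 16660 genes, of which 11553 were tested.

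Cells of this 1 line were transfected with 3 µg of plasmid per well, and RNA of 3 wells per plasmid was sequenced 48 h later, giving 15 libraries. NC received the empty plasmid (pCAG-floxP-neo-pH11). WT received human PKD2 of normal sequence, and Tg1, Tg2 and Tg3 received human PKD2 with the changes D511V, L656W and R742X, of which R742X is a stop codon that removes the C-terminal tail and the FLAG tag. PKD2 encodes polycystin-2, a cation channel mutated in autosomal dominant polycystic kidney disease, and was driven here by the CAG promoter. Every group thus received transfected plasmid, and all but NC received the human gene in pig cells that keep their own PKD2. The study's blot for the FLAG tag, on a separate well per plasmid, showed protein for WT, Tg1 and Tg2. It could not show Tg3, which lacks the tag. The expression was transient, and an untransfected group was not analysed here.

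Type I interferons are made by cells that sense foreign nucleic acid. They bind the receptor IFNAR1–IFNAR2, whose kinases JAK1 and TYK2 phosphorylate STAT proteins such as STAT2, and these join IRF9 and switch on the interferon-stimulated genes in the nucleus. The products of those genes bind or degrade viral RNA, block membrane fusion or budding, or are attached to other proteins, and some, such as IRF7, feed back on interferon production.

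The total count per library was between 20216200 and 26132196, so counting error was small beside the differences between wells. Wells of 1 plasmid differed by 2.90 to 46.6 in chi-square per degree of freedom, where counting error alone gives about 1, and the largest distance was between WT replicates 2 and 3. Proximal tubule and epithelial markers were present (15 of 15 matched genes passed the filter, with a summed level of 4452 to 4796 CPM, which are counts scaled to a common library total). Of 8 leukocyte markers, 5 had a mean under 2 CPM, the pan-leukocyte gene PTPRC did not exceed 0.0459 CPM, and most of the sum came from CD3E and CD14. That sum was 32.5 to 34.1 CPM in NC, 33.3 to 34.5 in WT, 32.9 to 36.1 in Tg1, 33.4 to 37.1 in Tg2 and 33.5 to 34.4 in Tg3. Within it CD68, at 1.40 to 3.27 CPM, was higher in Tg2 than in WT (0.81 ± 0.18, SE, log2; edgeR adjusted p = 0.0300). Of 7 fibroblast and endothelial markers, 6 had a mean under 2 CPM, with PDGFRA, CDH5 and KDR at or near 0, and nearly all of the sum was COL1A2. That sum was 929 to 969 CPM in NC, 931 to 1026 in WT, 879.9 to 999.8 in Tg1, 852 to 882 in Tg2 and 873 to 904 in Tg3, and COL1A2 correlated with the members' mean at r of -0.90 over the libraries. The part of CD68 and COL1A2 in the differences below was not tested. Because the members were chosen by the values of Tg2 against NC, that difference is given below as a description.

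The 24 members rose and fell together from well to well in each plasmid group, with few exceptions. The well with the highest level was replicate 2 for all 24 members in NC, in WT and in Tg3, and it was replicate 1 for all 24 in Tg2. In Tg1, replicate 3 was highest for 18 members and replicate 2 for 6, and replicate 1 was lowest for all 24. Replicate 3 was lowest for 23 members in NC and for 23 in Tg2, where ADAR was lowest in replicate 2. Over all 15 libraries the highest level of every member was in Tg2 replicate 1 and the lowest in WT replicate 3.

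The mean of the members' log2 levels, each centred on its own mean over the 15 libraries, summarises this pattern. It was -0.35, 0.01 and -0.50 in NC replicates 1, 2 and 3. It was -0.44, 0.24 and -0.80 in WT. The 3 WT wells thus covered a wider range than any other plasmid, with WT replicate 2 above all 3 NC wells and WT replicate 3 below them. The mean was -0.19, 0.19 and 0.22 in Tg1. It was 0.59, 0.44 and 0.11 in Tg2, and 0.11, 0.35 and -0.01 in Tg3. Tg2 replicate 3 lay below WT replicate 2, and NC replicate 2 lay above Tg1 replicate 1, so the wells of mutant and control plasmids were interleaved. The distance from WT replicate 3 to Tg2 replicate 1 was 1.39 on the log2 scale, or 2.62-fold. The members together took 1.22% of the normalised counts in WT replicate 3 and 3.62% in Tg2 replicate 1.

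**Figure D1:**
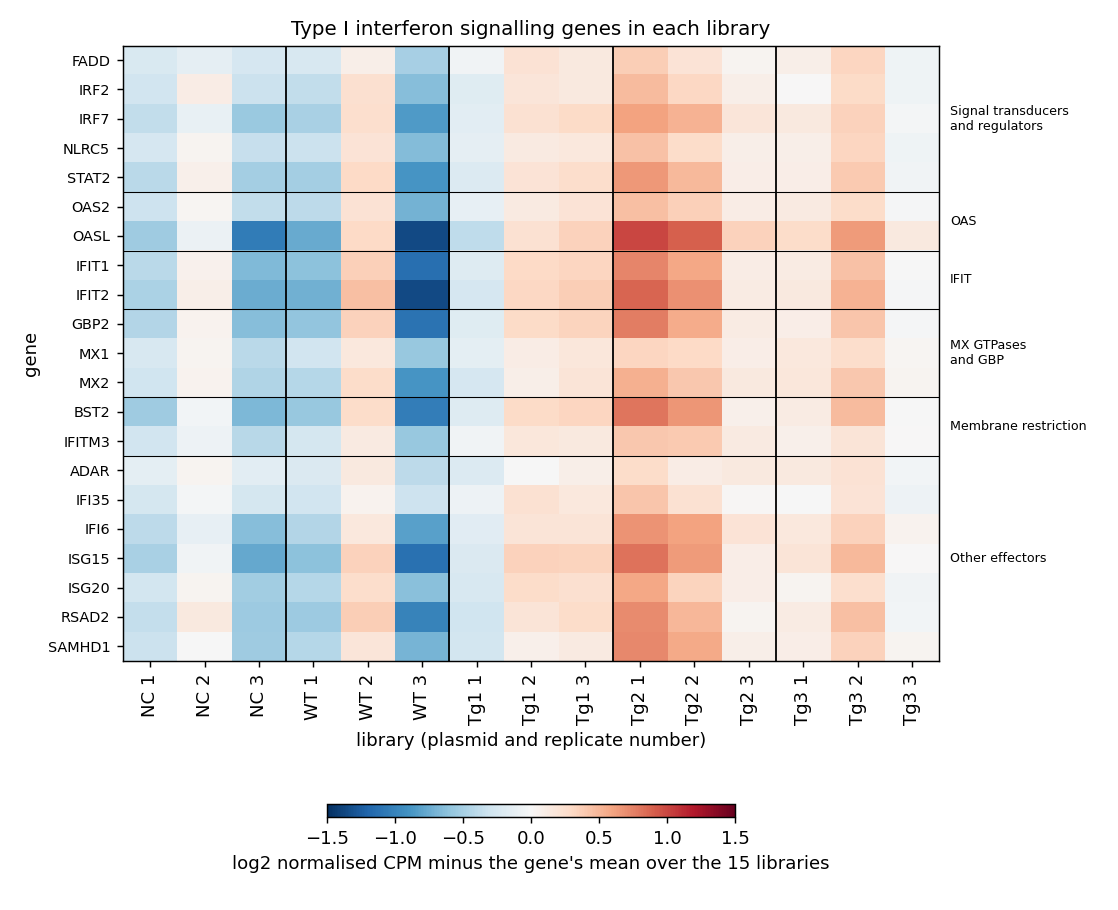
Level of 21 of the 24 members (rows, grouped by role) in each of the 15 libraries (columns, 3 wells per plasmid), as log2 normalised CPM minus the gene's own mean over the 15 libraries; red is above that mean and blue below. Whole columns change colour together, with WT replicate 3 the lowest and Tg2 replicate 1 the highest for every member.

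The spread between wells of 1 plasmid was larger for the members than for most genes. The pooled within-plasmid SD of log2 CPM was 0.17 to 0.52 over the 24 members, with a median of 0.30, beside a median of 0.092 over the 11553 genes tested. Differences between wells of 1 plasmid made up 34.1% (IFI6) to 58.2% of a member's whole variance over the libraries, with a median of 49.0%, and the median over all genes was 53.5%. The choice of members by Tg2 against NC favoured a lower share, so these medians are given as a description. The 276 pairs of members correlated over the 15 libraries with r between 0.84 and 0.98 for the lowest and the median pair, and their deviations from the plasmid means with r of 0.84 and 0.98. These correlations are descriptions, and their points share libraries and normalisation. In RNA of a whole well, a smaller share of responding cells and less RNA per responding cell cannot be told apart. The TMM factor, which scales a library's total, was highest in WT replicate 3 (1.04) and lowest in Tg2 replicate 1 (0.951), the libraries with the lowest and the highest members. Without TMM factors the distance between these 2 libraries was 1.25 in place of 1.39 on the log2 scale.

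Among the signal transducers and regulators, STAT2, a transcription factor that the receptor's kinases activate, followed the shared pattern. It had 308, 431 and 287 CPM in NC replicates 1, 2 and 3, and 286, 500.3 and 221 CPM in WT. It had 354, 468 and 488 CPM in Tg1, 640.0, 571 and 436 CPM in Tg2 and 437, 537 and 393 CPM in Tg3. WT replicate 2 was above all 3 Tg1 wells and above Tg2 replicate 3, while the wells of Tg2 and NC did not overlap.

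IRF7, the factor that drives further interferon gene transcription, had 361, 434 and 317 CPM in NC and 333, 558 and 259 CPM in WT. The mutant plasmids gave 418, 545 and 569 CPM for Tg1, 708, 672 and 529 CPM for Tg2 and 517, 595 and 458 CPM for Tg3. Every Tg2 and Tg3 well was above the NC wells for IRF7, and WT replicate 2 was above Tg2 replicate 3 and above replicates 1 and 3 of Tg3. NLRC5, a transactivator of MHC class I genes, ranged from 141 to 299 CPM. IRF2, which competes with IRF1 for its sites, ranged from 80.1 to 175 CPM. FADD, an adaptor of death receptors, ranged from 43.6 to 79.1 CPM. These last 3 genes moved less between wells than STAT2 and IRF7 did.

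The OAS family of proteins senses viral RNA. OASL, the OAS-like member of the family, had 168, 229 and 118 CPM in NC and 144, 299.8 and 95.1 CPM in WT. It had 188, 285 and 309 CPM in Tg1, 489.9, 455 and 311 CPM in Tg2 and 296, 378 and 269.7 CPM in Tg3. All 3 Tg2 wells were above every NC, WT and Tg1 well, although Tg2 replicate 3 exceeded Tg1 replicate 3 by little. OAS2 covered 902 to 2013 CPM, again between WT replicate 3 and Tg2 replicate 1.

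IFIT1 and IFIT2 bind viral RNA and hold back its translation. IFIT2 had 1336, 1979 and 1106 CPM in NC, 1127, 2532 and 729 CPM in WT and 1555, 2299 and 2408 CPM in Tg1. It had 3393, 2992 and 2022 CPM in Tg2 and 2057, 2672 and 1842 CPM in Tg3. WT replicate 2 held 3.47 times the IFIT2 level of WT replicate 3, the widest gap within a plasmid of any member. IFIT1 had its highest and lowest wells in the same libraries, with 2517, 4938 and 1764 CPM in WT and 6403, 5758 and 4163 CPM in Tg2. Reads of related transcripts such as these can be shared between genes in transcript quantification.

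MX1 and MX2 are dynamin-like GTPases that trap viral nucleocapsids, and GBP2 is a guanylate-binding GTPase. MX1 moved the least of the 3, from 939 to 1746 CPM, while MX2 moved from 1406 to 3734 CPM. GBP2 had 148, 284 and 104 CPM in WT and 379, 328 and 244 CPM in Tg2, and WT replicate 2 lay above Tg2 replicate 3. MX1 and MX2 are close relatives, so part of their reads may also be shared.

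Of the membrane restriction factors, IFITM3 blocks fusion of virions in endosomes and BST2, or tetherin, holds budding virions at the cell surface. IFITM3 had 349, 405 and 318 CPM in NC and 356, 465 and 287 CPM in WT. It had 409, 478 and 472 CPM in Tg1, 561, 560.3 and 466 CPM in Tg2 and 448, 487 and 427 CPM in Tg3. Each mutant well was above each NC well, although Tg1 replicate 1 exceeded NC replicate 2 by little. All 3 Tg2 wells were above WT replicate 2, replicate 3 by little. BST2 had 212, 299 and 192 CPM in NC, 207, 373 and 149.7 CPM in WT and 538, 487 and 324 CPM in Tg2, and its WT replicate 2 lay above Tg2 replicate 3.

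Among the other effectors, ISG15, a ubiquitin-like protein attached to other proteins, was among the members with the widest range. It had 1470.4, 1991 and 1210.4 CPM in NC, 1342, 2625 and 949 CPM in WT and 1768, 2613 and 2606 CPM in Tg1. It had 3638, 3210.2 and 2211 CPM in Tg2 and 2359, 2892 and 2066 CPM in Tg3. RSAD2, or viperin, which makes a chain-terminating nucleotide, followed with 2036 to 6666 CPM, and here NC replicate 2 lay above Tg2 replicate 3.

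IFI6, a small membrane protein induced by interferon, was steadier within plasmids than ISG15. It had 649, 784 and 549 CPM in NC and 629.9, 958 and 488 CPM in WT. It had 759, 977 and 980.0 CPM in Tg1, 1364, 1295 and 986 CPM in Tg2 and 953, 1088 and 888 CPM in Tg3. All 3 Tg2 wells were above all wells of NC, WT and Tg1 for IFI6, although Tg2 replicate 3 exceeded Tg1 replicates 2 and 3 by little. SAMHD1, which hydrolyses deoxynucleotides, had 116, 144 and 99.7 CPM in NC, 108, 165 and 89.0 CPM in WT and 239, 214 and 154 CPM in Tg2. ADAR, which edits adenosine to inosine in RNA, moved least, with 222, 287 and 196 CPM in WT and 311, 279 and 285 CPM in Tg2. IFI35, a regulator of innate sensing, and the exonuclease ISG20 covered 55.8 to 91.9 and 42.8 to 99.2 CPM.

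**Figure D2:**
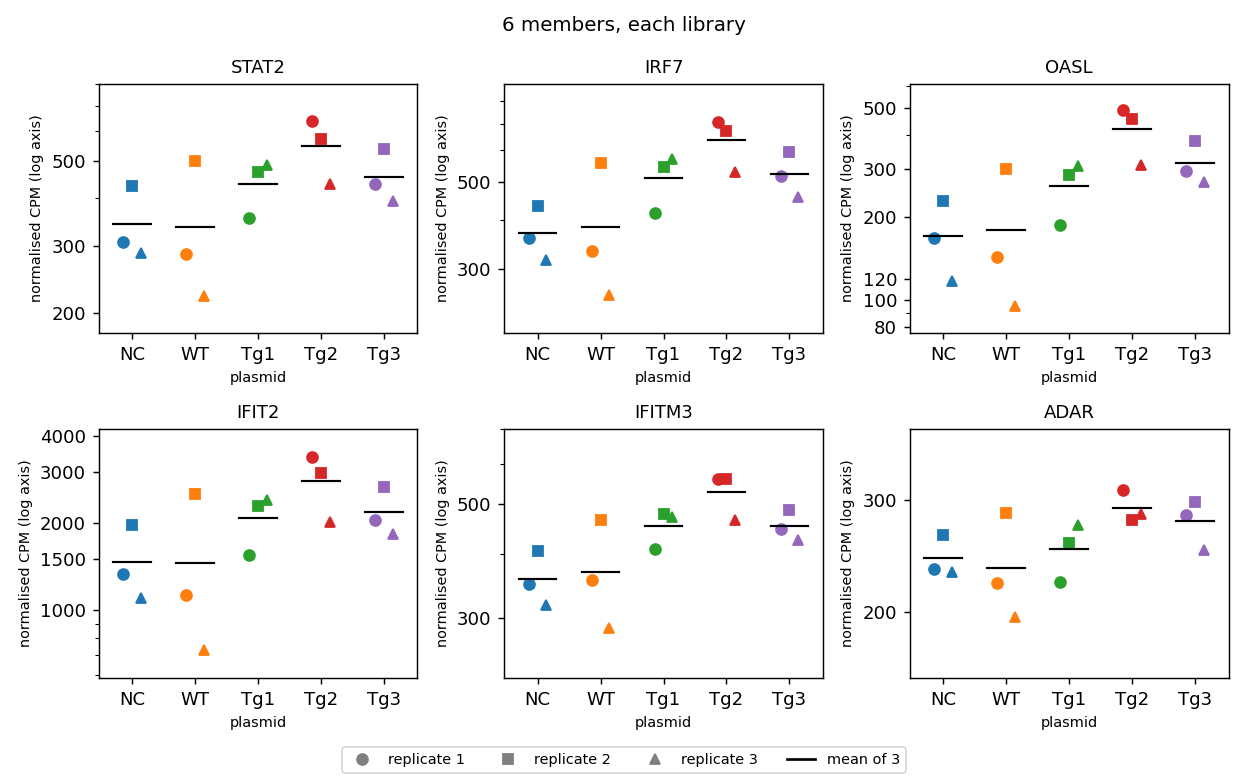
Normalised CPM (log axis) of STAT2, IRF7, OASL, IFIT2, IFITM3 and ADAR in each library, by plasmid; symbols mark the replicate number and the bar is the mean of 3 wells. The WT wells are the most spread in all 6 genes, and WT replicate 2 sits among the mutant wells.

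The comparison of WT with NC addresses whether the normal PKD2 plasmid changed these genes, and its NC wells took part in the choice of members. No member was called, where a call needed an adjusted p no higher than 0.05 and a log2 fold change of at least 0.26 in either direction, in edgeR's quasi-likelihood test (0.0% of all genes tested were called). No member had an unadjusted p under 0.05 either, beside 4.54% of all genes, and DESeq2 called 0. The log2 fold changes of the 24 members lay between -0.06 and 0.07 with a median SE of 0.21, 11 above 0 and 13 below. The smallest unadjusted p belonged to ADAR (-0.05 ± 0.12, SE), IFITM3 (0.05 ± 0.14) and IFI6 (0.07 ± 0.21), and the largest difference to ISG15 (0.07 ± 0.31). The nominal 95% intervals of the members, from the SE by a normal approximation, reached from -0.72 to 0.75. That of IFIT2 ran from -0.72 to 0.70. Intervals that take the small number of libraries into account would be wider. Changes of that size in either direction are thus within the error of this comparison.

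Tg2 had the highest mean of the 5 plasmids for all 24 members, which the choice of members favoured. Against NC the log2 fold changes were 0.26 to 1.28, with a median of 0.59, where the median of all genes was -0.01. OASL differed by 1.28 ± 0.35 (2.43-fold), ISG15 by 0.96 ± 0.31, IFITM3 by 0.57 ± 0.14 and IFI6 by 0.88 ± 0.21. In edgeR 8 of the 24 were called (IFI6, IFITM3, OASL, SAMHD1, IRF7, IFI35, BST2 and FADD), beside 8.43% of all genes, and DESeq2 called 11, beside 10.8%. Without NC replicate 1, NC replicate 3, Tg2 replicate 1 or Tg2 replicate 2, edgeR called 0 members, beside 0 to 0.415% of all genes. Wells of Tg2 and NC did not overlap for 21 members, beside 35.5% of all genes, with IRF2 and RSAD2 among the exceptions. Inside the list the smallest fold change was that of ADAR (0.26), and the genes of the other pathway lists with the nearest smaller values were RELB (0.25) and IRF3 (0.25).

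Against WT, Tg2 shared its own 3 libraries with the comparison that chose the members. Of the 24, IFI6, IFITM3, OASL and SAMHD1 were called, beside 5.92% of all genes, and all 4 were higher in Tg2. IFI6 differed by 0.81 ± 0.21 (adjusted p = 0.0367), IFITM3 by 0.52 ± 0.14 (adjusted p = 0.0408), SAMHD1 by 0.75 ± 0.21 (adjusted p = 0.0436) and OASL by 1.22 ± 0.35 (adjusted p = 0.0453). The other 20 members had log2 fold changes of 0.31 to 0.94 and adjusted p-values up to 0.106. DESeq2 called 10 of the 24, beside 10.2% of all genes. Wells of Tg2 and WT did not overlap for IFI6, IFITM3 and OASL alone, beside 24.4% of all genes, since WT replicate 2 exceeded Tg2 replicate 3 for the 21 others.

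The group means of Tg1, Tg3 and WT hold no NC or Tg2 well, the wells by which the members were chosen. The SEs and p-values do draw on those wells, because 1 model of all 15 libraries estimated the spread. Fitted on the 2 groups alone, Tg1 against WT and Tg3 against WT each had 0 members called, beside 0 of all genes. Against WT, Tg1 had a higher mean for all 24 members, with log2 fold changes of 0.10 to 0.54 (median 0.31) and adjusted p-values of 0.282 or more. None was called in edgeR, beside 0.0692% of all genes, or in DESeq2, and 2 had an unadjusted p under 0.05 (IFI35 and FADD), beside 15.6% of all genes. IFI35 differed by 0.28 ± 0.12, FADD by 0.30 ± 0.13, IFITM3 by 0.30 ± 0.14, and the largest differences were those of OASL (0.54 ± 0.35) and IFIT2 (0.51 ± 0.36). Wells of Tg1 and WT overlapped for all 24 members, beside 16.9% of all genes without overlap.

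Against WT, Tg3 was also higher in mean for all 24, by 0.22 to 0.81 (median 0.41), with adjusted p-values of 0.218 or more. None was called in edgeR, beside 0.0% of all genes, or in DESeq2, and 5 had an unadjusted p under 0.05, beside 19.2% of all genes. FADD differed by 0.32 ± 0.13, IFI6 by 0.50 ± 0.21 and OASL by 0.81 ± 0.35, and IFIT2 by 0.58 ± 0.36. Wells of Tg3 and WT again overlapped for all 24, beside 20.5% of all genes without overlap. The same-sided means of the 24 are not 24 separate observations, as the members share the pattern of wells.

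Leaving out WT replicate 2 changed these calls the most for Tg1 and Tg3. Without it, 22 of the 24 members were called for Tg1 (all but ADAR and SAMHD1), beside 7.4% of all genes. All 24 were called for Tg2, beside 21.0% of all genes, and 23 for Tg3 (all but IFI35), beside 11.4% of all genes. OASL then differed from WT by 1.12 ± 0.29 in Tg1, 1.81 ± 0.29 in Tg2 and 1.40 ± 0.29 in Tg3. IFIT2 differed by 1.17 ± 0.28, 1.60 ± 0.29 and 1.24 ± 0.28. WT replicate 2 is the highest WT well of every member, so leaving it out moves these differences upward by construction, and it also narrows the spread of WT. Leaving out WT replicate 1 or WT replicate 3 gave 0 members called for each of the 3 mutants, but there at most 1 of all genes was called, so this count says nothing of the members. For Tg2 other libraries moved the call as well: 17 members were called without Tg2 replicate 3, beside 16.3% of all genes, and 0 without Tg2 replicate 1 or 2, beside 0 of all genes, without NC replicate 1, beside 2.59%, or without Tg3 replicate 1, beside 2.3%. Without WT replicate 2, WT against NC still had 0 members called, beside 0.216% of all genes, with log2 fold changes of -0.67 to -0.12.

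**Figure D3:**
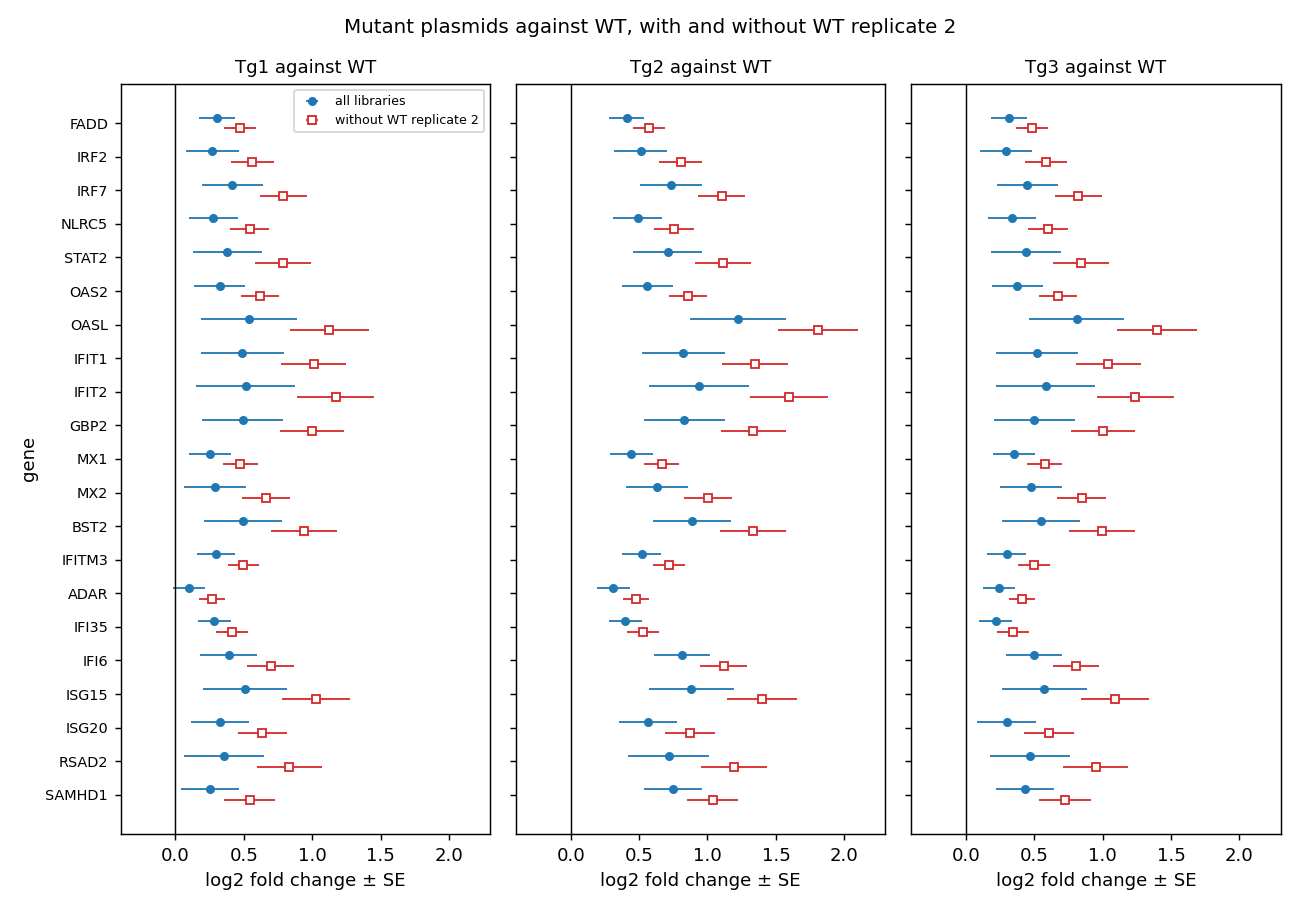
Log2 fold change ± SE of 21 of the 24 members (rows) for Tg1, Tg2 and Tg3 against WT, with all libraries (filled circles) and without WT replicate 2 (open squares). All points lie above 0, and those without WT replicate 2 lie to the right, up to 1.81 for OASL in Tg2.

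Tg1 and Tg3 were also compared with NC, whose libraries took part in the choice of members. For Tg1 the log2 fold changes were 0.05 to 0.60 (median 0.30), with 0 members called in edgeR, beside 1.19% of all genes, 0 in DESeq2 and 4 with an unadjusted p under 0.05, beside 19.9% of all genes. IFI35 (0.30 ± 0.12), FADD (0.31 ± 0.13) and IFITM3 (0.34 ± 0.14) had the smallest p, and OASL (0.60 ± 0.35) and ISG15 (0.58 ± 0.31) the largest differences. For Tg3 they were 0.19 to 0.87 (median 0.39), with 0 members called in edgeR, beside 0.0% of all genes, 0 in DESeq2 and 7 with an unadjusted p under 0.05, beside 18.1% of all genes. IFI6 (0.56 ± 0.21), FADD (0.33 ± 0.13) and OASL (0.87 ± 0.35) had the smallest p, and ISG15 differed by 0.65 ± 0.31.

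Between mutants, the means of the 24 members were highest in Tg2, and the mean of Tg3 came next for 22 of them. Tg1 was below Tg2 by 0.10 to 0.68 on the log2 scale, with 0 members called in edgeR, beside 0.138% of all genes, 0 in DESeq2 and 1 with an unadjusted p under 0.05 (SAMHD1), beside 19.8% of all genes. SAMHD1 differed by -0.49 ± 0.21, IFI6 by -0.42 ± 0.21 and OASL by -0.68 ± 0.35. Tg1 and Tg3 differed by -0.27 to 0.07, with 0 members called in edgeR, beside 0.615% of all genes, 0 in DESeq2 and 0 with an unadjusted p under 0.05, beside 15.8% of all genes. OASL was lowest there (-0.27 ± 0.35), followed by MX2 (-0.19 ± 0.23), SAMHD1 (-0.18 ± 0.21) and ADAR (-0.14 ± 0.12). Tg2 was above Tg3 by 0.07 to 0.41, with 0 members called in edgeR, beside 0.0% of all genes, 0 in DESeq2 and 0 with an unadjusted p under 0.05, beside 5.83% of all genes. OASL (0.41 ± 0.35), IFIT2 (0.36 ± 0.36), IFITM3 (0.22 ± 0.14), IFI6 (0.32 ± 0.21) and IFI35 (0.18 ± 0.12) are named there by the rule for the smallest p and the largest differences. Neighbours in the order of means, Tg2, Tg3, Tg1 and the pair of WT and NC, thus had 0 members called between them. The share of all genes called there was 0.0 to 1.19%. Their wells overlapped for most members, but the share over all genes was not counted for most of these pairs. The overlap thus cannot be read as a trait of the members.

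The members mostly shared the order of wells but not the size of the change. A slope of the member's deviations from its plasmid means on those of the other 23 members measures this, and it uses no difference between plasmids. The slope was 1.70 for IFIT2, 1.62 for OASL, 1.44 for ISG15 and 1.40 for IFIT1. It was 1.01 for IRF7 and 1.16 for STAT2. The smallest slopes were those of ADAR (0.48), IFI35 (0.48), FADD (0.54) and IFITM3 (0.62). By role, the 2 IFIT genes had slopes of 1.40 and 1.70, and the 7 signal transducers and regulators 0.54 to 1.16. Each IFIT gene thus changed by a larger factor between wells of 1 plasmid than any of these 7 did.

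The difference between wells and the difference between plasmids can be set side by side for each member, as a description. WT replicate 2 exceeded WT replicate 3 by 1.80 on the log2 scale for IFIT2, 1.66 for OASL and 1.47 for ISG15, and by 0.36 for IFI35 and 0.54 for ADAR. Across the 24 members this difference correlated with the log2 fold change of Tg2 against NC with r of 0.83, across genes that are not independent, share their libraries within each measure and were chosen by the second of these values. For 23 of the 24 members the gap between these 2 wells of 1 plasmid was larger than the difference between Tg2 and NC, IFI35 being the exception. These are the most distant wells of the most spread plasmid, and single wells stand here against means of 3. The ratio of the highest to the lowest well had a median over the members of 1.93 in WT, and of 1.42 in NC, 1.35 in Tg1, 1.36 in Tg2 and 1.29 in Tg3.

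**Figure D4:**
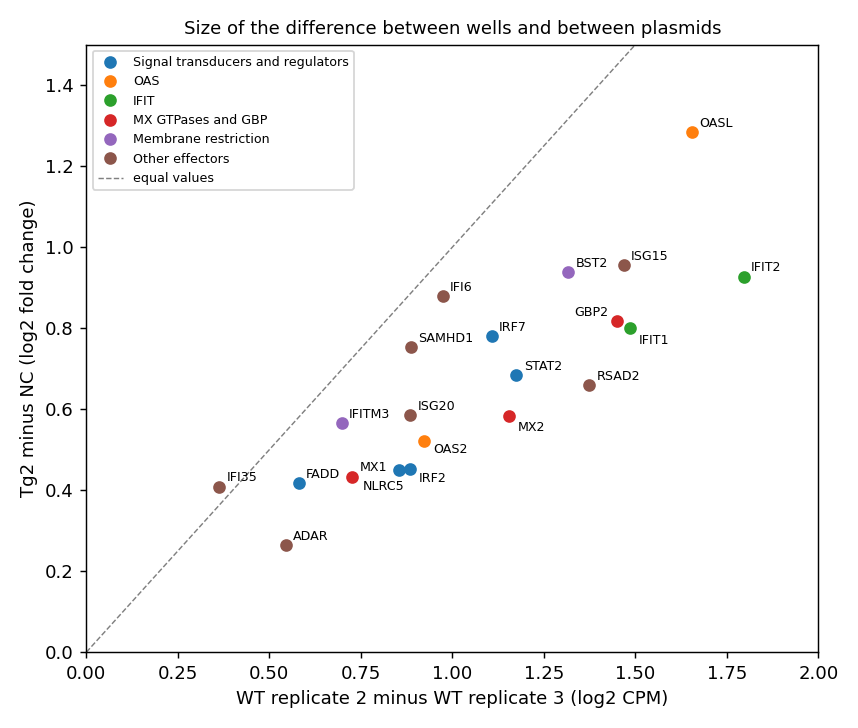
Each point is 1 of 21 members: its log2 difference between WT replicates 2 and 3 (horizontal) and its log2 fold change of Tg2 against NC (vertical), coloured by role; the dashed line marks equal values. IFI35 alone lies above the line, and OASL stands highest at 1.28.

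OASL did not keep a fixed distance from the other members across plasmids. Relative to the mean of the other 23 members, OASL was -0.20, -0.11 and -0.57 in NC and -0.33, 0.05 and -0.59 in WT. It was -0.20, 0.04 and 0.12 in Tg1, 0.43, 0.48 and 0.24 in Tg2 and 0.18, 0.29 and 0.16 in Tg3. In Tg2 replicate 3 the level of OASL was above that in WT replicate 2, whereas 21 members were higher in WT replicate 2. IFI6 was 0.09, 0.16 and 0.09 relative to the others in Tg2, and -0.06, -0.14 and -0.15 in NC. The shift was not particular to OASL. BST2 was -0.19, -0.05 and -0.18 in NC and 0.23, 0.23 and -0.04 in Tg2. ISG15 was -0.15, -0.06 and -0.28 in NC and 0.24, 0.20 and -0.01 in Tg2. A slope far from 1, as described above, gives part of such a shift by itself. ADAR went the other way, at -0.33, -0.34 and 0.03 in Tg2 and 0.21, 0.03 and 0.35 in NC. These values are descriptions of genes singled out after their values were seen.

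Other genes of the pathway were read from lists of ligands, receptors and kinases, transcription factors, nucleic acid sensors, negative feedback and further interferon-induced genes, with NF-κB target genes for comparison. Of 67 such genes tested, 49 correlated with the members' mean at r of 0.90 or more over the 15 libraries, which is 73.1% of them, beside 7.67% of all genes tested. The 67 include the 8 NF-κB target genes, of which 4 reached that r. Of 7 ligand symbols, 3 were matched to a gene. Those of interferon alpha, omega and lambda were not matched, so their levels were not read here. IFNB1, interferon beta, was the only matched ligand that passed the filter. It had 2.16, 3.09 and 1.39 CPM in NC, 0.885, 3.44 and 0.613 CPM in WT and 2.78, 3.23 and 3.08 CPM in Tg1, and 5.07, 2.48 and 2.52 CPM in Tg2 and 2.68, 3.49 and 1.63 CPM in Tg3. Its highest well was again Tg2 replicate 1 and its lowest WT replicate 3, but it was not called in any comparison (Tg2 against WT 1.03 ± 0.50, adjusted p = 0.159). IFNE did not exceed 1.12 CPM and IFNK 0.0876 CPM.

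Of the receptor subunits and kinases, IFNAR2 followed the members (r = 0.98) with 79.8, 107 and 66.2 CPM in WT and 127, 117 and 93.0 CPM in Tg2, and IFNAR1 did so over a narrower range, 72.9 to 107 CPM. TYK2 was called for Tg2 against WT (0.28 ± 0.08, adjusted p = 0.0442). It was the 1 of 5 tested genes of this list that was, beside 5.92% of all genes. JAK1, the other kinase, stayed between 227 and 249 CPM, with r of -0.52, and is named after its values were seen.

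None of the 5 tested transcription factors was called for Tg2 against WT, beside 5.92% of all genes. IRF3, the factor that first switches on interferon beta, came closest: it had 74.0, 83.7 and 73.8 CPM in WT, 87.0, 88.0 and 87.6 CPM in Tg1, 94.1, 92.2 and 89.2 CPM in Tg2 and 83.8, 82.5 and 83.1 CPM in Tg3. Its wells were close together, and Tg2 differed from WT by 0.25 ± 0.05 (adjusted p = 0.0239), below the fold threshold. IRF9, a partner of STAT2, differed by 0.22 ± 0.08 (adjusted p = 0.0835) and IRF1 by 0.45 ± 0.18 (adjusted p = 0.0989).

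Of 13 tested sensors and adaptors, 1 was called for Tg2 against WT, beside 5.92% of all genes. It was TICAM1, the adaptor of TLR3 (0.35 ± 0.10, adjusted p = 0.0417). TMEM173, or STING, the adaptor of cytosolic DNA sensing, had 41.1, 56.5 and 31.2 CPM in WT and 71.1, 68.5 and 56.7 CPM in Tg2 and differed by 0.61 ± 0.18 (adjusted p = 0.0509). DHX58, a regulator of RIG-I-like sensing, differed by 0.63 ± 0.21 (adjusted p = 0.0620). MAVS, the mitochondrial adaptor of those sensors, had r of -0.63 and stayed between 26.9 and 34.4 CPM.

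Of 8 feedback genes, 1 was called for Tg2 against WT, beside 5.92% of all genes. It was SOCS1, which inhibits the receptor's kinases (0.86 ± 0.25, adjusted p = 0.0473). It had 21.1, 40.9 and 17.7 CPM in WT and 56.7, 49.2 and 38.7 CPM in Tg2. USP18, which removes ISG15 from proteins and blocks the receptor, differed by 0.92 ± 0.30 (adjusted p = 0.0603), and SOCS3 by 0.24 ± 0.09 (adjusted p = 0.0891).

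Of 27 tested interferon-induced genes outside the term, 26 had r of 0.90 or more with the members, and EIF2AK2, the kinase PKR, was the exception at 0.84. The chemokine gene CXCL9 (1.67 ± 0.46, adjusted p = 0.0410) and TRIM25, a ubiquitin ligase of RNA sensing (1.12 ± 0.31, adjusted p = 0.0422), were called for Tg2 against WT, beside 5.92% of all genes. CXCL9 was low throughout, with 3.35, 7.25 and 1.45 CPM in WT and 15.7, 14.9 and 7.70 CPM in Tg2. UBA7, the activating enzyme of ISG15, differed by 0.92 ± 0.28 (adjusted p = 0.0501).

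Of 8 NF-κB target genes, 3 were called for Tg2 against WT, beside 5.92% of all genes. They were RELB (0.34 ± 0.05, adjusted p = 0.0239), TNFAIP3 (0.37 ± 0.08, adjusted p = 0.0290) and NFKBIA (0.58 ± 0.15, adjusted p = 0.0374). These target genes also moved with the members over the libraries, with r of 0.67 to 0.99 in the list of 8. Against NC, in the comparison that chose the members, 12 of the 67 genes were called for Tg2, beside 8.43% of all genes, and all were higher. Of these 12, 4 were NF-κB target genes. Against WT the lists together had 8 of 67 called, beside 5.92% of all genes, the 3 NF-κB target genes above among them. No gene of these lists was called for Tg1 or Tg3 against WT or NC. Of all genes, 0.0692% were called for Tg1 against WT, 1.19% for Tg1 against NC and 0.0% for Tg3 against either. These counts of 0 thus say nothing of the pathway.

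**Figure D5:**
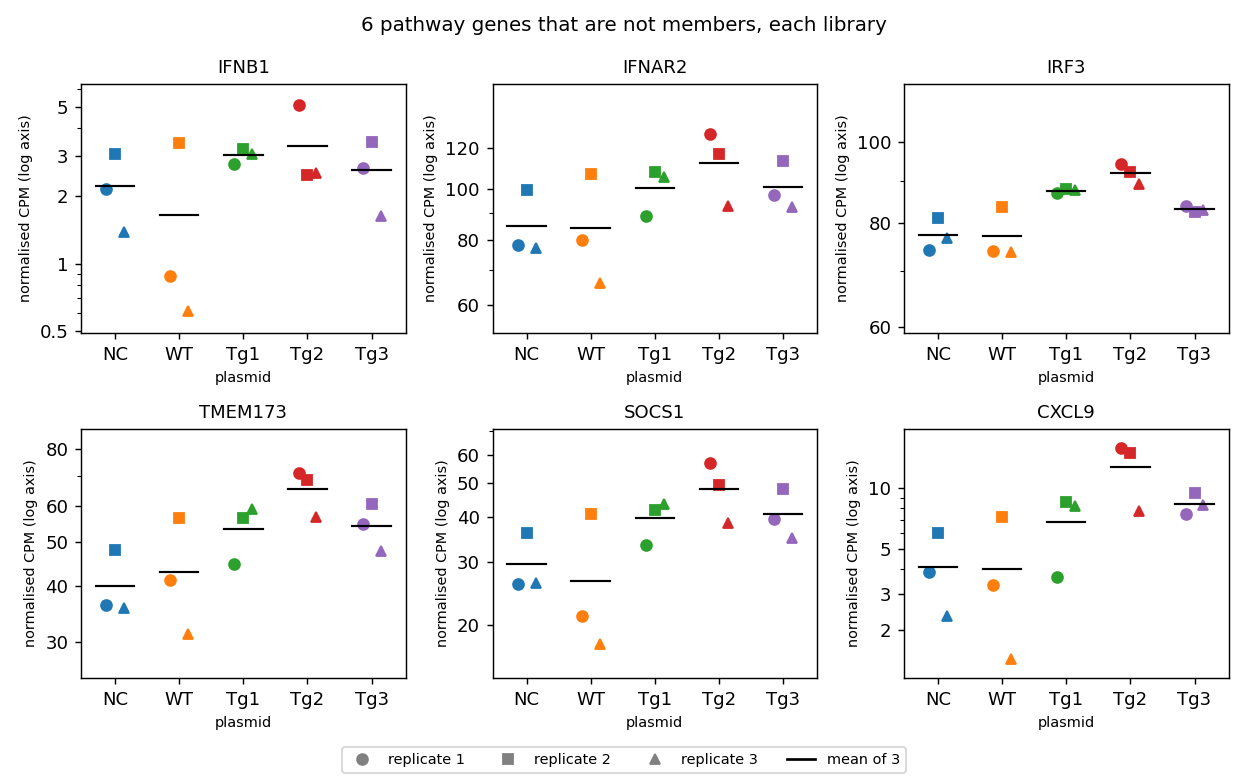
Normalised CPM (log axis) of IFNB1, IFNAR2, IRF3, TMEM173, SOCS1 and CXCL9 in each library, by plasmid; symbols mark the replicate number and the bar is the mean of 3 wells. WT replicate 3 is the lowest well and Tg2 replicate 1 the highest in each gene, and the wells of IRF3 lie closer together within a plasmid than those of the others.

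The 5 genes outside the members whose pattern was most like theirs were WARS, TRIM22, DHX58, CNP and BID, by Pearson's r between log2 CPM and the members' mean over the 15 libraries (0.9987, 0.9983, 0.9981, 0.9980 and 0.9976). WARS, the cytoplasmic tryptophan tRNA ligase, had 256, 482 and 185 CPM in WT and 677, 592 and 433 CPM in Tg2. In all, 886 of the 11553 tested genes had r of 0.90 or more, the 24 members among them, and 310 had r of -0.90 or less.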

How the data were processed

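RNA from 15 wells (5 plasmids, 3 wells each) was quantified by the authors with Salmon against the Ensembl release 98 pig cDNA set, and whole-number counts per gene were deposited, not scaled between libraries; how transcripts were summed to genes is not given in the sources used here. Groups and replicate numbers came from the sample labels.

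The counts were normalised by TMM and tested with the quasi-likelihood functions of edgeR 4.0.16 in R 4.3.3. Genes whose mean over the libraries reached 2 CPM were kept, all 15 libraries entered 1 model of 5 group means, and p-values were adjusted by Benjamini-Hochberg over the 11553 genes. Correlations used log2 CPM with a prior count of 2. Alternatives were DESeq2 1.42.0, its size factors, no filter, only the 2 groups compared, the replicate number as a block, no fold threshold and leaving out each library; library totals without TMM factors were added after seeing the data. In counts simulated for Tg1 against NC over 11553 genes, edgeR recovered 100 of 100 genes changed by 1 and 93 of 100 changed by 0.5 on the log2 scale, with 13 other calls. That simulation drew each gene separately, with 1 spread between wells for all genes (biological coefficient of variation 0.0732). The members spread more between wells than most genes and moved together, so these recoveries do not hold for them. Members, roles and gene lists were chosen with earlier results of these data known. Members are described by role, called members are named, or where none or more than 6 were called the 3 with the smallest p and the 2 with the largest difference; of each pathway list up to 3 with the smallest p for Tg2 against WT are named. Same-numbered wells of WT and NC deviated together (r of 0.15, 0.54 and 0.46 over all genes), and the block changed no call there. Nothing in the labels says that the wells came from separate cultures, so p-values measure the spread between these wells, which may be technical. PKD2 itself was not analysed here, and 3 members and 1 marker, which enter the counts and summaries, are not reported one by one here.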

Additional observations from a re-analysis of the deposited data

How the results depend on the processing

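Called members of Tg2 against NC numbered 8, beside 8.43% of all genes. They numbered 23 when only these 2 groups were fitted (10.2% of all genes) or with the replicate block (14.1%). Those of Tg2 against WT numbered 4, beside 5.92% of all genes, and 10 with DESeq2 (10.2%). They numbered 0 with only the 2 groups (0% of all genes), 24 with the replicate block (13.7%) and 8 without TMM factors (9.54%). Same-numbered wells deviated together over all genes with r of 0.15, 0.54 and 0.46 for WT and NC. For Tg3 these were 0.03, 0.49 and 0.36 with NC and 0.07, 0.45 and 0.25 with WT. In the other pairs of plasmids some replicate number had a negative r. The labels do not say what wells of 1 number share. In the other 8 comparisons the block called no member, beside at most 2.13% of all genes. Leaving out 1 library at a time gave 0 to 24 members for Tg2 against NC, 0 to 24 for Tg2 against WT, 0 to 22 for Tg1 against WT and 0 to 23 for Tg3 against WT, and 0 in each of the other comparisons. The highest values came without WT replicate 2, where the 24 members of Tg2 against NC stood beside 13.8% of all genes. The share of all genes called moved as well, though not always in step with these counts. For Tg2 against NC the share ran from 0 to 16.3%, highest without Tg2 replicate 3, and for Tg2 against WT from 0 to 21.0%. It went from 0 to 7.4% for Tg1 against WT and from 0 to 11.4% for Tg3 against WT, and reached at most 2.21% in the other comparisons. The counts thus do not describe the members alone. Tg2 against NC fell to 0 without NC replicate 1 (0.208% of all genes called), NC replicate 3 (0%), Tg2 replicate 1 (0.415%) or Tg2 replicate 2 (0%). It gave 3 without Tg3 replicate 1 (5.87%), 5 without Tg1 replicate 2 (6.43%) or 3 (6.83%) and 15 without NC replicate 2 (11.4%). It gave 17 without Tg2 replicate 3 (16.3%) and 20 without WT replicate 3 (11%). Tg2 against WT fell to 0 without WT replicate 1 (0.00865% of all genes called) and without WT replicate 3, Tg2 replicate 1 or Tg2 replicate 2 (0% each). It also fell to 0 without NC replicate 1 (2.59%) or Tg3 replicate 1 (2.3%). It gave 1 without Tg1 replicate 2 (3.08%), Tg1 replicate 3 (4.28%) or Tg3 replicate 3 (4.24%), and 17 without Tg2 replicate 3 (16.3%). Where a library is left out, fewer samples estimate the spread; beyond that the cause was not tested. DESeq2 size factors and no filter left every count of called members within 1.5 times, and both scalings kept every direction of the members named. Dropping the fold threshold could not change a count, because every member within the p threshold was also beyond the fold threshold.

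Changes of sign concerned members near 0. For WT against NC, leaving out 1 library gave -0.22 to 0.065 for ADAR (0.017 without NC replicate 2, 0.065 without WT replicate 3), -0.16 to 0.20 for IFITM3 (-0.032 without NC replicate 3, -0.16 without WT replicate 2), -0.24 to 0.27 for IFI6 (-0.051 and -0.24 without the same libraries) and -0.44 to 0.35 for ISG15 (-0.080 and -0.44). For Tg1 against WT, ADAR ran from -0.016 without WT replicate 3 to 0.26 without WT replicate 2. Counting depth did not limit these genes: the lowest level of a member was 42.8 CPM.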

Other observations

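Several genes that define the proximal tubule went opposite to the members over the libraries. Of the 15 epithelial markers, SLC5A1 (r = -0.94 with the members' mean), ANPEP (-0.91), SLC34A1 (-0.90), VIL1 (-0.89), SLC5A2 (-0.86) and LRP2 (-0.85) had the lowest correlations, as descriptions over the same 15 libraries. SLC34A1, the sodium phosphate cotransporter of the brush border, had 68.7, 60.6 and 73.3 CPM in WT and 46.5, 44.7 and 56.0 CPM in Tg2, and was called lower in Tg2 than in WT (-0.46 ± 0.10, SE, edgeR adjusted p = 0.0300). VIL1, the villin gene of microvilli, differed by -0.32 ± 0.08 (edgeR adjusted p = 0.0359), and SLC5A2, a sodium glucose cotransporter, by -0.31 ± 0.08 (edgeR adjusted p = 0.0381). CDH1, E-cadherin, went with the members (0.94), and KRT18 correlated weakly (-0.08). The part of these differences in those of the interferon genes was not tested.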
